A study of Homo sapiens with 6 samples.

Results

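The 9 genes described here encode enzymes and the cofactor that write, copy and remove DNA methylation, together with 2 histone methyltransferases of silent chromatin. They were taken as the rows named UHRF1, DNMT1, DNMT3A, DNMT3B, TET1, TET2, TET3, SETDB1 and EZH2 in a table of 56303 genes, and all 9 were found and tested among 20465 genes. RNA sequencing compared A549 cells given an siRNA against HNRNPD (3 libraries) with A549 cells given a negative-control siRNA (3 libraries). A549, a long-established cell line, came from a human lung adenocarcinoma, and HNRNPD encodes AUF1, a protein that binds AU-rich RNA. The time after transfection, the dose and the siRNA sequences are not given in the labels, which also do not say whether libraries of 1 group came from separate cultures. The p-values therefore rest on variation among the 6 libraries alone, part or all of which may be technical.

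Cytosine methylation at CpG sites is copied after DNA replication by DNMT1, which is brought to the newly made, hemimethylated DNA by UHRF1. DNMT3A and DNMT3B set methylation on sites that lacked it, and the TET enzymes oxidise methylcytosine, the first step of its removal. SETDB1 trimethylates lysine 9 of histone H3 at retroelements and silenced genes, and EZH2 is the catalytic subunit of Polycomb repressive complex 2 (PRC2), which trimethylates lysine 27. UHRF1, DNMT1 and EZH2 are known targets of the E2F transcription factors, which drive genes of S phase.

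After HNRNPD siRNA, UHRF1 fell 2.53-fold, DNMT3B 1.68-fold, EZH2 1.28-fold and DNMT1 1.16-fold, while TET3 rose 1.7-fold, SETDB1 1.34-fold and TET2 1.23-fold. DNMT3A and TET1 were not called. A gene is called at an adjusted p under 0.05 (edgeR quasi-likelihood test, Benjamini-Hochberg over all tested genes). The 7 of 9 genes called (77.8%) stand beside 56.1% of all tested genes, of which 28.4% were higher and 27.8% lower, and beside 63.3% of genes with at least 1 count per 1000000 counts (CPM) in 3 libraries, of which 32.3% were higher and 31.1% lower. Most expressed genes were called in this comparison, so a count of 7 in 9 is not in itself a result about these genes. The median log2 fold change of the 9 genes was -0.21, against 0.01 for all tested genes.

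Promoter sequence is shown for the 3 genes in which E2F words were found. These 3 are among the 4 that fell, and any part of E2F in their falls was not tested. The words searched, on both strands, were TTTGGCGC, TTTCCCGC, TTTCGCGC and TTTGCCGC. Windows of 300 bases, from 250 before to 50 after each annotated start, came from RefSeq (GRCh38.p14), which held 22 windows for all 9 genes, matched by symbol. Each is printed 5′ to 3′ on the strand of the gene, with the word in capitals.
UHRF1, chr19:4909251-4909550, plus strand: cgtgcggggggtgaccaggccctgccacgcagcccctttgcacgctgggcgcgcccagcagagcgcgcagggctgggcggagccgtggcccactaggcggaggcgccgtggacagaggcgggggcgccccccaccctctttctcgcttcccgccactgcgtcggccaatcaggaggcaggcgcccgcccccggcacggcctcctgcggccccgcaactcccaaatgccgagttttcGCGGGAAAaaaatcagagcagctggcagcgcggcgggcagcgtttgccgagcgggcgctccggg
UHRF1, chr19:4909894-4910193, plus strand: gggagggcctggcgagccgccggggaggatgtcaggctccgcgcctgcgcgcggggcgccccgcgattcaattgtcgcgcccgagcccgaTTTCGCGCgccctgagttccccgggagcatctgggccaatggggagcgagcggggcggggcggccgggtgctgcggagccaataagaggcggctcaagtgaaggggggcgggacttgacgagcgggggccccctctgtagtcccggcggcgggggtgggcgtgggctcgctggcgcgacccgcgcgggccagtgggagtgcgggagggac
DNMT1, chr19:10194904-10195203, minus strand: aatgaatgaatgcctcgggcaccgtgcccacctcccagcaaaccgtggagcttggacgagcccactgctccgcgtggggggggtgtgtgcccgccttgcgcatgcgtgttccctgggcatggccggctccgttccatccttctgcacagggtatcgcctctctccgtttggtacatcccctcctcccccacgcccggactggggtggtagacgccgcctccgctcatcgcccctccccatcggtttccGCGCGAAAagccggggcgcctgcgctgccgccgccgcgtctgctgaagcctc
EZH2, chr7:148884242-148884541, minus strand: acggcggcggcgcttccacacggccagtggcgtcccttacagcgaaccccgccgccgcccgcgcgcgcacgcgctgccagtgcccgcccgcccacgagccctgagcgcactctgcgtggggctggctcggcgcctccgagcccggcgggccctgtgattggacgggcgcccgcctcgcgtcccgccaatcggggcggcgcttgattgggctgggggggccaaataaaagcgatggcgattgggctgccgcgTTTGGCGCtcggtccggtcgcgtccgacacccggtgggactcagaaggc
Each of the 4 windows held 1 match, with no overlap between words. The first base of the word lay at -14 in the upper UHRF1 window, at -160 in the next one, at -2 in DNMT1 and at 2 in EZH2, counted from the start site with no position 0. In the upper UHRF1 window and in DNMT1, the capitals show the reverse complement of a word. No window of DNMT3A, DNMT3B, TET1, TET2, TET3 or SETDB1 held any of these letters, which says nothing about whether E2F binds there. The only DNMT3B window, from 32779602 to 32779901 on chromosome 20, lies inside the gene, which begins at 32762385. All UHRF1 windows and the DNMT1 window also lie inside their genes. In the counted annotation, UHRF1 begins at 4903080 on the plus strand and DNMT1 at 10231286 on the minus strand. For these 3 genes, the sequence before that beginning was therefore not searched. A word was present in 3.31% of all RefSeq windows and in at least 1 window of 6.26% of the 11361 tested genes that had one. Of 24 genes with a window in a list of S-phase E2F targets, 14 (58.3%) held a word. Every word searched holds a CpG, and these shares are not matched for CpG content. The windows shown hold 36 and 40 CpG sites in UHRF1, 30 in DNMT1 and 46 in EZH2, against a median of 24 in windows of tested genes. Windows of the 9 genes without a word held 3 to 46.

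The libraries held 37151094 to 43005090 counts. HNRNPD itself was at 177, 162.7 and 167.5 CPM in HNRNPD siRNA libraries, against 965.4, 942.8 and 942.2 CPM in control libraries, a 5.62-fold fall (log2 fold change -2.49, SE 0.06, edgeR adjusted p = 1.38e-15), which matches the labels in all 6 libraries. The first principal component of log2 CPM, with 93.3% of the variance, separated the groups, and the second, with 3.02%, set HNRNPD siRNA replicate 3 apart from the other two of its group. All 6 epithelial markers were tested, of which 1 was higher (EPCAM) and 4 were lower (KRT7, KRT8, KRT18 and KRT19), with a summed 3589 to 3635 CPM in HNRNPD siRNA libraries and 5621 to 6001 CPM in control libraries. Markers of alveolar type II cells, the cell type that A549 is used to model, were largely absent. SFTPA1 had no count, SFTPB, SFTPC, SFTPA2 and NKX2-1 were under 0.3 CPM in every library, and their list summed to 52.1 to 77.1 CPM in HNRNPD siRNA libraries and 27.8 to 30.2 CPM in control libraries through ABCA3, not called, and LAMP3, called higher at 31.0 CPM in HNRNPD siRNA libraries and 0.432 CPM in control libraries. Of 10 markers of blood, stroma and endothelium the sum was 7.47 to 8.44 CPM in HNRNPD siRNA libraries and 7.94 to 8.01 CPM in control libraries. Of 3 of these tested, COL1A1 was higher and CD14 lower, and the call of COL1A1 was lost without HNRNPD siRNA replicate 1 (adjusted p = 0.0655) or control replicate 3 (0.113).

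UHRF1, on chromosome 19 from 4903080 to 4962154 (GRCh38, plus strand), had the largest change. Its level was 37.8, 43.0 and 39.5 CPM in HNRNPD siRNA replicates 1 to 3, against 100.6, 104.1 and 99.7 CPM in control replicates 1 to 3. The groups lay far apart, and the spread within each was small beside the gap between them. The means were 40.1 ± 2.67 CPM in HNRNPD siRNA libraries and 101.5 ± 2.35 CPM in control libraries (SD, n = 3 each), and the log2 fold change was -1.34 (SE 0.06, adjusted p by edgeR = 5.59e-12). Of 12189 protein-coding genes averaging 1 CPM or more, 2.58% had a log2 fold change as low as that of UHRF1 or lower. In these bulk libraries, fewer cells expressing a gene and less of its RNA per cell cannot be told apart.

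DNMT1, the maintenance methyltransferase that UHRF1 recruits, was the most abundant of the 9 genes in both groups, and its fall was small. It was at 357.6, 334.6 and 385.3 CPM in HNRNPD siRNA libraries, against 411, 416.9 and 421.5 CPM in control libraries. The groups did not overlap, but HNRNPD siRNA replicate 3 came near the lowest control. The log2 fold change was -0.21 (SE 0.06, edgeR adjusted p = 0.00612), and it ran from -0.27 to -0.17 as each library was left out in turn, with an adjusted p of at most 0.0442. The gene lies on chromosome 19 from 10133345 to 10231286 and shares 69 of its 9796 exonic bases with S1PR2, which was at 0.726 CPM in HNRNPD siRNA libraries and 1.14 CPM in control libraries. The ratio of UHRF1 to DNMT1 in counts per kilobase of exon, taken within each library and so independent of scaling between libraries, was 0.201, 0.245 and 0.195 in HNRNPD siRNA libraries, against 0.466, 0.476 and 0.45 in control libraries. The log2 difference of this ratio was -1.12.

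UHRF2, the paralog of UHRF1 that does not replace it in maintenance methylation, was not called (log2 fold change -0.04, SE 0.07, edgeR adjusted p = 0.608). It stood at 28.7 ± 1.21 CPM in HNRNPD siRNA libraries and 29.6 ± 0.46 CPM in control libraries (SD, n = 3 each). The within-library ratio of UHRF1 to UHRF2 was therefore 2.70 ± 0.15 in HNRNPD siRNA libraries and 6.61 ± 0.05 in control libraries (SD, n = 3 each).

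**Figure D1:**
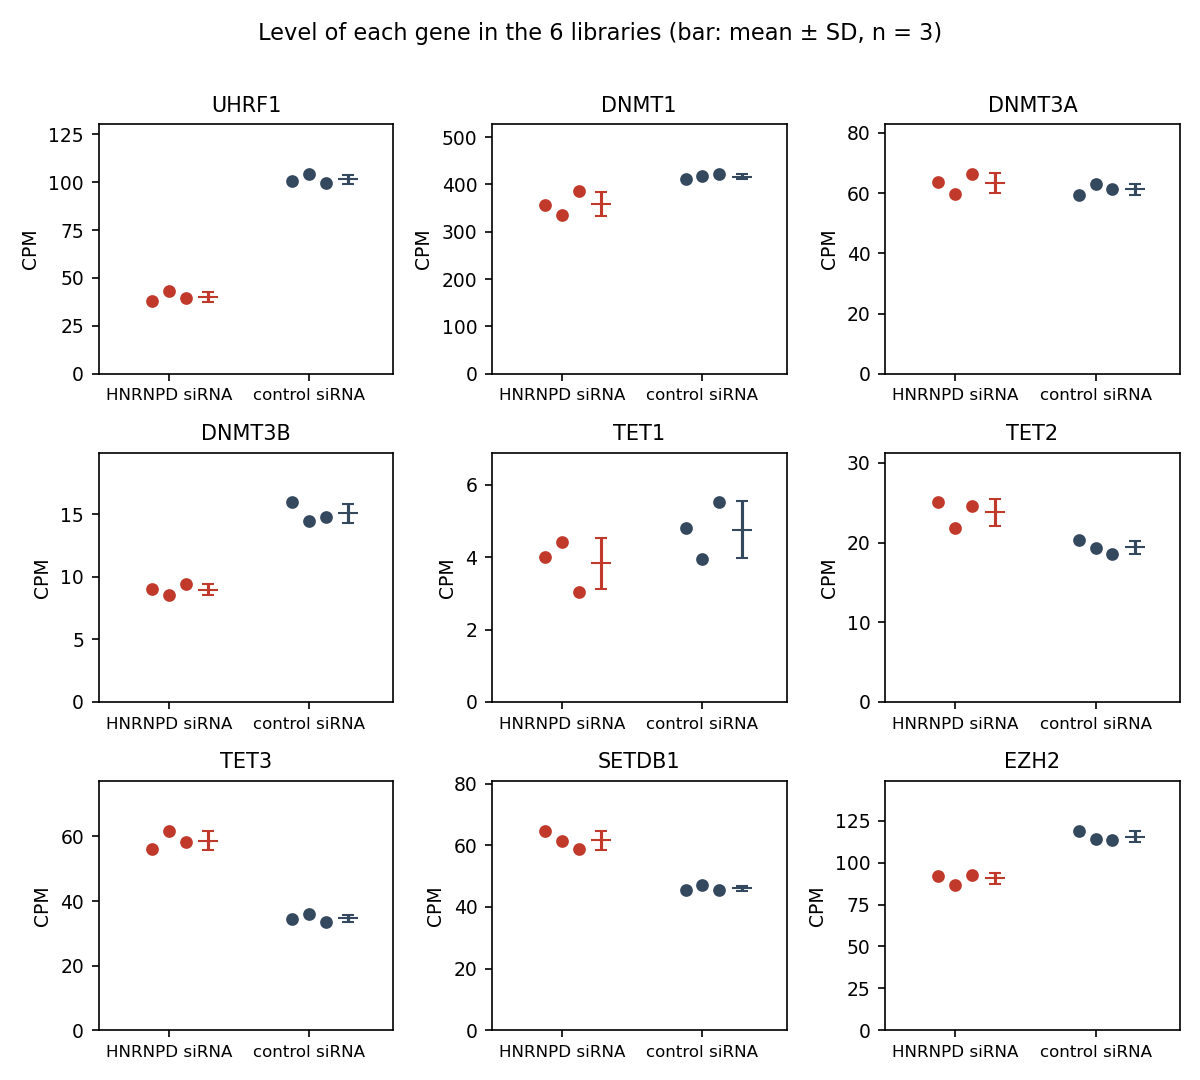
Level in CPM (vertical axis, from 0) of each gene in the 3 HNRNPD siRNA libraries (red, left) and the 3 control siRNA libraries (dark, right), with mean and SD beside the points. UHRF1 lies at 37.8 to 43.0 CPM after HNRNPD siRNA and 99.7 to 104.1 CPM in controls, and the points of DNMT3A and TET1 overlap between the groups.

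The de novo methyltransferases behaved differently from each other. DNMT3B, on chromosome 20 from 32762385 to 32809356, was at 8.99, 8.57 and 9.39 CPM in HNRNPD siRNA libraries, against 15.9, 14.5 and 14.8 CPM in control libraries. All 3 HNRNPD siRNA libraries lay below all 3 controls, and the fitted log2 fold change was -0.75 (SE 0.09, adjusted p by edgeR = 1.42e-06). DNMT3A, on chromosome 2 from 25227855 to 25342590, was at 63.8, 59.8 and 66.3 CPM in HNRNPD siRNA libraries and 59.5, 63.1 and 61.4 CPM in control libraries. These ranges overlap, and the log2 fold change was 0.05 (SE 0.06, adjusted p by edgeR = 0.554). Its 95% interval, from -0.08 to 0.17, does not reach the -0.75 of DNMT3B. The ratio of DNMT3B to DNMT3A within each library was 0.365, 0.372 and 0.368 in HNRNPD siRNA libraries, against 0.696, 0.595 and 0.625 in control libraries. DNMT3L, the catalytically inactive partner of both, had too few counts to be tested, at 0.0913 CPM in HNRNPD siRNA libraries and 0.149 CPM in control libraries.

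Of the 3 TET genes, TET3 and TET2 rose and TET1 was not called. TET3, on chromosome 2 from 73986404 to 74108176, was at 56.0, 61.8 and 58.3 CPM in HNRNPD siRNA libraries, against 34.4, 35.8 and 33.6 CPM in control libraries. The groups were well apart, on the log2 scale by 0.76 (SE 0.06, edgeR adjusted p = 1.27e-08). TET2, on chromosome 4 from 105145875 to 105279816, was at 25.0, 21.9 and 24.6 CPM in HNRNPD siRNA libraries, against 20.3, 19.3 and 18.6 CPM in control libraries. Its groups were close but did not overlap, and the log2 fold change was 0.30 (SE 0.08, adjusted p by edgeR = 0.00353). TET1, on chromosome 10 from 68560656 to 68694482, was the lowest of the 9 genes, with 146, 185 and 122 counts in HNRNPD siRNA libraries and 205, 169 and 231 counts in control libraries. Its levels of 4.01, 4.41 and 3.05 CPM in HNRNPD siRNA libraries overlap those of 4.81, 3.94 and 5.51 CPM in control libraries. The log2 fold change was -0.31 (SE 0.16, edgeR adjusted p = 0.113), with an interval from -0.63 to 0.01. Without control replicate 2, TET1 was called lower (log2 fold change -0.44, adjusted p = 0.0467), and over the 6 libraries left out in turn its adjusted p reached 0.368. The ratio of TET3 to TET1 was 11.9 ± 2.3 in HNRNPD siRNA libraries and 5.63 ± 1.1 in control libraries (SD, n = 3 each), and that of TET3 to TET2 was 3.33 ± 0.41 in HNRNPD siRNA libraries and 2.40 ± 0.11 in control libraries (SD, n = 3 each).

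The histone methyltransferases moved in opposite directions. EZH2, on chromosome 7 from 148807383 to 148884321, was at 92.2, 86.8 and 92.9 CPM in HNRNPD siRNA libraries, against 119, 114.4 and 113.4 CPM in control libraries. It fell without overlap between the groups (log2 fold change -0.35, SE 0.06, edgeR adjusted p = 4.58e-05). A processed copy named EZH2P1 had 2 counts in all libraries together. SETDB1, on chromosome 1 from 150926263 to 150964744, was at 64.8, 61.4 and 58.7 CPM in HNRNPD siRNA libraries, against 45.5, 47.1 and 45.6 CPM in control libraries. It rose, also without overlap, by 0.42 on the log2 scale (SE 0.06, adjusted p by edgeR = 1.44e-05). SETDB1 shares 948 of 7093 exonic bases (13.4%) with CERS2, a ceramide synthase gene on the opposite strand, and the strand setting of the counting is not given. CERS2 was at 61.4 ± 6.47 CPM in HNRNPD siRNA libraries and 76.8 ± 2.65 CPM in control libraries (SD, n = 3 each), lower after HNRNPD siRNA, and its part in the SETDB1 counts was not tested.

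**Figure D2:**
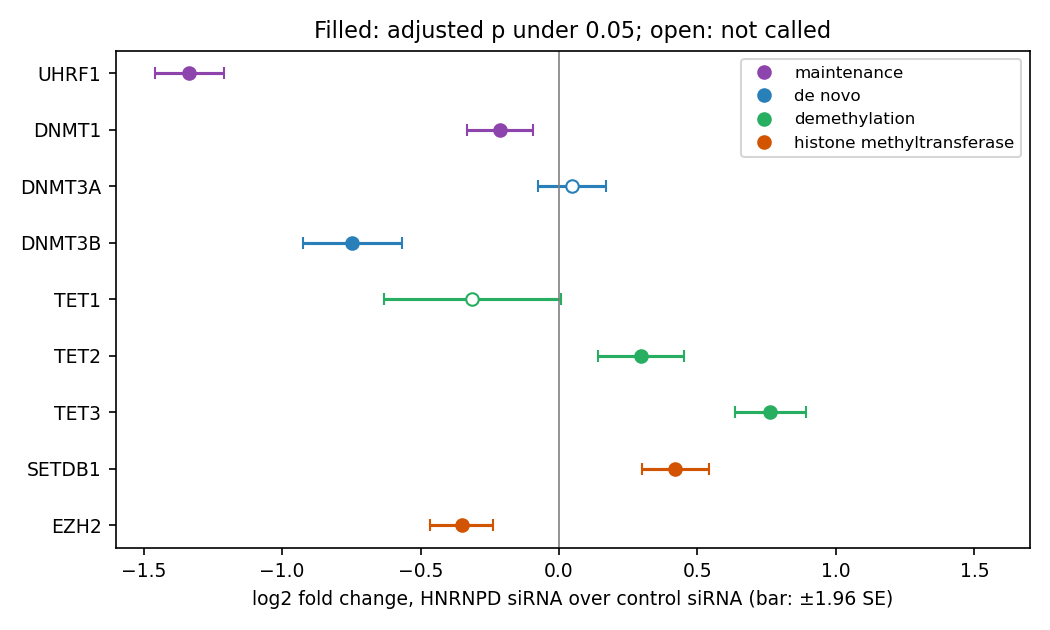
Log2 fold change of HNRNPD siRNA over control siRNA (horizontal axis) for each gene, with bars for the 95% interval, coloured by role, and open circles for genes that were not called. UHRF1 stands farthest from 0 at -1.34, and the intervals of DNMT3A and TET1 cross 0.

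Taken per kilobase of exon and with the same scaling, the order of levels changed in 2 places. In HNRNPD siRNA libraries, the mean CPM per kilobase was 36.7 for DNMT1, 20.1 for EZH2, 8.69 for SETDB1, 7.80 for UHRF1, 5.27 for DNMT3A, 4.78 for TET3, 1.94 for DNMT3B, 1.45 for TET2 and 0.412 for TET1. In control libraries, it was 42.5 for DNMT1, 25.6 for EZH2, 19.7 for UHRF1, 6.49 for SETDB1, 5.10 for DNMT3A, 3.25 for DNMT3B, 2.82 for TET3, 1.18 for TET2 and 0.512 for TET1. UHRF1 thus stood above SETDB1 in controls, while their ranges overlapped after HNRNPD siRNA, from 8.28 to 9.13 for SETDB1 and from 7.35 to 8.37 for UHRF1. TET3 stood above DNMT3B after HNRNPD siRNA, with no overlap, and below it in controls, also with no overlap. The ranges of DNMT3A (4.98 to 5.51) and TET3 (4.56 to 5.03) overlapped after HNRNPD siRNA, and no other neighbours in either order did. The length is that of all annotated exons of a gene together, so genes with many alternative exons are placed too low.

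The 6 ratios computed within libraries, including that of EZH2 to its paralog EZH1 (2.29, 2.18 and 2.50 in HNRNPD siRNA libraries, against 3.77, 3.27 and 3.54 in control libraries), did not overlap between the groups. Each had an exact two-sided permutation p of 0.1, unadjusted and adjusted over the 6 ratios, which is the smallest that 3 libraries against 3 can give. For comparison, the levels of 62.6% of all tested genes did not overlap between the groups.

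**Figure D3:**
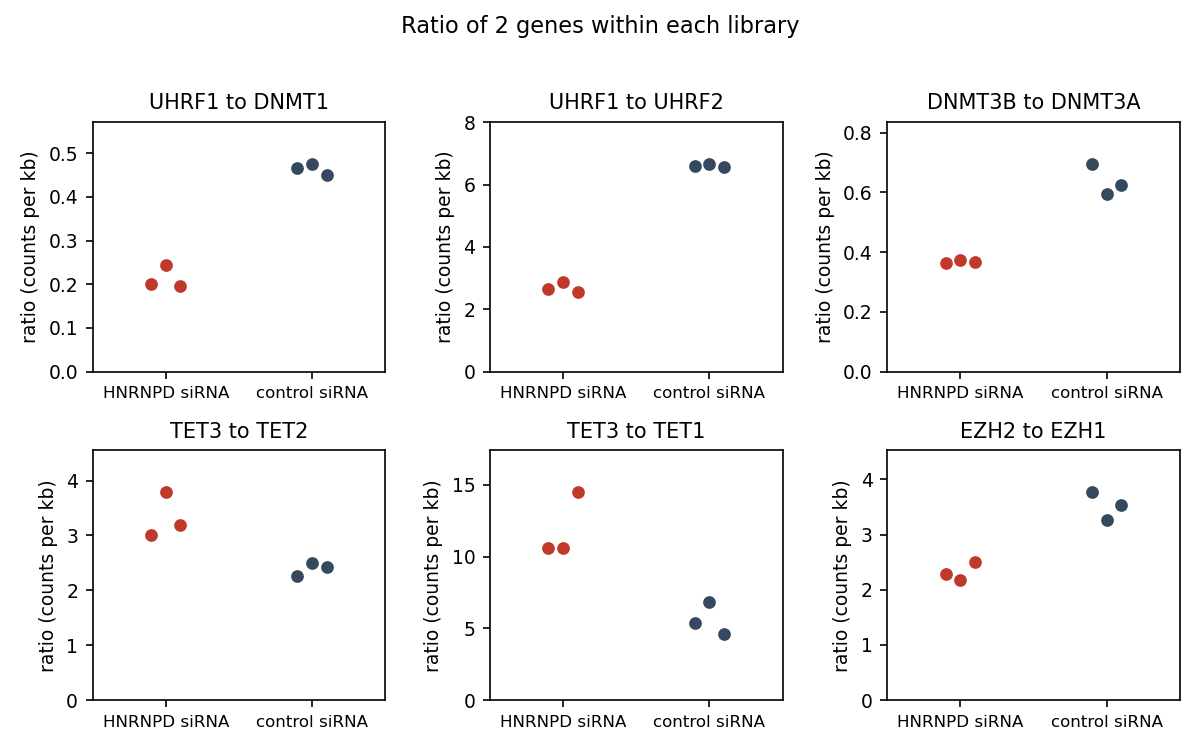
Ratio of counts per kilobase between 2 genes (vertical axis, from 0) in each HNRNPD siRNA library (red, left) and each control siRNA library (dark, right). UHRF1 to DNMT1 lies at 0.195 to 0.245 after HNRNPD siRNA and 0.45 to 0.476 in controls, and TET3 to TET2 lies at 3.0 to 3.79 after HNRNPD siRNA and 2.27 to 2.49 in controls.

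The genes whose profile over the 6 libraries was most like that of UHRF1 were SPSB1, BAIAP2L2, LRP5L, CPT1A and DDX41. Likeness was the root-mean-square difference of log2 CPM, each gene centred on its own mean, over 9642 tested protein-coding genes that averaged 5 CPM or more. It ran from 0.047 for SPSB1 to 0.0554 for DDX41 on the log2 scale. SPSB1 was at 4.93 ± 0.318 CPM in HNRNPD siRNA libraries and 12.4 ± 0.159 CPM in control libraries (SD, n = 3 each). CPT1A, the carnitine palmitoyltransferase of the mitochondrial outer membrane, was at 25.9 ± 1.94 CPM in HNRNPD siRNA libraries and 65.9 ± 1.49 CPM in control libraries (SD, n = 3 each). All 5 fell about as far as UHRF1, from 2.50-fold for DDX41 to 2.54-fold for CPT1A.

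AU-rich words in the 3′ untranslated regions (UTRs) were counted because AUF1 binds AU-rich RNA, using 1 GENCODE 29 transcript per gene. The nonamer TTATTTATT was in none of the 9 genes, and in 7.89% of 13436 tested genes. The shorter word ATTTA was found 18 times in TET3, 8 times in TET2, 5 times in TET1 and in DNMT3A, 2 times in EZH2, 1 time in UHRF1 and in DNMT1, and not at all in DNMT3B or SETDB1. By length, this was 7.66 per kilobase in EZH2, 3.12 in DNMT1, 3.04 in UHRF1, 3.0 in TET3, 2.44 in TET2, 1.87 in TET1 and 0.778 in DNMT3A, beside a median of 1.65 per kilobase among tested genes. The 3 densest regions belong to genes that fell, but they are short, so 1 or 2 words set their density. They hold 261 bases in EZH2, 321 in DNMT1 and 329 in UHRF1. TET3, with 6000 bases, comes next, close to DNMT1 and UHRF1. Only EZH2 lay above the upper quartile of tested genes, 3.22 per kilobase. Of the pair with no match, DNMT3B fell and SETDB1 rose. The first such word is shown, in capitals within 30 bases, for the gene with the largest fall and the one with the largest rise.
UHRF1 3′ UTR, chromosome 19: acattttcaggaATTTAtgtattctggcta
TET3 3′ UTR, chromosome 2: tcatatatatgtATTTAtggtccaaacctc
A match of 5 letters is a description of the sequence and not a binding site.

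Other genes of the same pathways, in lists drawn up by function but with earlier results of these data known, moved in both directions. The list counts here and below stand beside 56.1% of all tested genes called, 28.4% higher and 27.8% lower. Among genes with at least 1 CPM in 3 libraries, 63.3% were called. A count near these shares is not in itself a result about a list. Among 11 tested partners of UHRF1 and the DNMT enzymes, 5 were lower and 2 higher, with a median log2 fold change of -0.10. USP7, the deubiquitinase that stabilises UHRF1 and DNMT1, fell 1.36-fold (232 CPM in HNRNPD siRNA libraries and 315 CPM in control libraries). HELLS, a remodeller needed for DNA methylation, fell 1.34-fold, and KIAA0101, also called PCLAF or PAF15, which docks on the replication clamp and is bound by UHRF1, fell 1.51-fold. KIAA0101 shares 28.8% of its exonic bases with another gene. PCNA, the replication clamp that DNMT1 binds, rose 1.59-fold (98.4 CPM in HNRNPD siRNA libraries and 62.1 CPM in control libraries).

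In a list of 28 E2F targets of S phase, 18 were lower and 3 higher, with a median log2 fold change of -0.26, against 0.01 for all tested genes. The helicase subunits MCM2, MCM5 and MCM6 and the thymidine kinase TK1 had the smallest p. MCM6 was at 36.5 CPM in HNRNPD siRNA libraries and 82.5 CPM in control libraries (log2 fold change -1.18, SE 0.09), and TK1 at 7.26 CPM in HNRNPD siRNA libraries and 19.2 CPM in control libraries (-1.40, SE 0.10). The list summed to 1523 to 1623 CPM in HNRNPD siRNA libraries and 1906 to 1995 CPM in control libraries. It moved in the same direction as UHRF1, DNMT1 and EZH2, and its part in their falls was not tested. The 3 exceptions that rose were CCNE1, CHAF1A and ORC1 (log2 fold changes 0.37, 0.17 and 0.28). Of the 28, 1 was called higher without HNRNPD siRNA replicate 1 or without control replicate 1 or 3. With 1 library left out in turn, 15 to 17 were called lower, and 16 were with a replicate block. PCNA, the replication clamp, was counted among the UHRF1 partners and not in this list. It rose more than these 3 (log2 fold change 0.665).

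PRC2 subunits other than EZH2 were higher in 4 of 11 cases and lower in 1, with a median log2 fold change of 0.09. Those that rose were the accessory subunits MTF2 (1.6-fold), JARID2 (1.64-fold) and PHF1 (1.71-fold) and the alternative catalytic subunit EZH1 (1.19-fold). The core subunits SUZ12 and EED were not called, at log2 fold changes of 0.09 (SE 0.06) and -0.07 (SE 0.09). RBBP7, a histone chaperone of the complex, was lower at a log2 fold change of -0.16, and it was not called without HNRNPD siRNA replicate 2 (adjusted p = 0.128), without control replicate 1 (0.0826) or 3 (0.0621), with library totals as the only scaling (0.0603) and with at least 1 CPM required in 3 libraries (0.0525). Of 19 subunits of Polycomb repressive complex 1, 7 were higher and 7 lower, at a median of 0.11. PCGF5 rose 2.14-fold and CBX6 1.47-fold, while CBX2 and the ubiquitin ligase RNF2 fell 1.81-fold and 1.84-fold.

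Among 21 genes of lysine 9 methylation, heterochromatin protein 1 (HP1) and the HUSH silencing complex, 8 were higher and 4 lower, with a median of 0.07. CBX5, which encodes HP1 alpha, fell 1.76-fold (87.8 ± 10.3 CPM in HNRNPD siRNA libraries and 154.3 ± 7.08 CPM in control libraries, SD, n = 3 each). FAM208A, also called TASOR, a HUSH subunit, rose 1.42-fold, the remodeller ATRX 1.33-fold and LRIF1 1.6-fold, though LRIF1 shares 31.0% of its exonic bases with other genes. ATF7IP, the partner that stabilises SETDB1, rose as SETDB1 did (31.4 ± 1.31 CPM in HNRNPD siRNA libraries and 22.8 ± 0.947 CPM in control libraries, SD, n = 3 each). TRIM28, which brings SETDB1 to its targets, was not called (log2 fold change -0.11, SE 0.06, edgeR adjusted p = 0.145). ATF7IP and TRIM28 were picked as SETDB1 partners after their values were seen.

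Readers of methylated CpG sites were called in 7 of 8 cases, 4 higher and 3 lower, at a median of 0.13. The share called among all genes with at least 1 CPM in 3 libraries was 63.3%. MBD4, a glycosylase of deaminated methyl-CpG, fell 1.82-fold, while ZBTB4 rose 1.85-fold, ZBTB33 (Kaiso) 1.44-fold and MBD1 1.32-fold. Of 15 tested TET partners and base excision repair genes, 5 were higher and 4 lower, at a median of 0.05, and 3 were higher without HNRNPD siRNA replicate 2 or without control replicate 1. TDG, the glycosylase that excises the oxidised bases that TET enzymes make, rose 1.55-fold (52.6 CPM in HNRNPD siRNA libraries and 33.9 CPM in control libraries). The uracil glycosylase UNG fell 1.72-fold. The CXXC-domain genes CXXC5 and CXXC4, known as regulators of TET2, went in opposite directions, with CXXC5 at 1.03 CPM in HNRNPD siRNA libraries and 5.05 CPM in control libraries and CXXC4 at 3.84 CPM in HNRNPD siRNA libraries and 2.14 CPM in control libraries.

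Enzymes and related genes of the methyl donor S-adenosylmethionine and of 2-oxoglutarate, the cosubstrate of TET enzymes, made up the next list. Of 18 tested, 7 were lower and 4 higher, at a median of -0.12. MAT2A, which makes S-adenosylmethionine, fell 1.48-fold, the AHCY-like gene AHCYL1 1.42-fold and the mitochondrial isocitrate dehydrogenase IDH2 2.12-fold. The methionine synthase MTR rose 1.42-fold. AHCY, named beside AHCYL1 after its values were seen, was also lower (log2 fold change -0.459, edgeR adjusted p = 0.000154). The 4 higher calls became 2 without HNRNPD siRNA replicate 1 or without control replicate 1. Histone demethylases acting on lysines 9 and 27 were higher in 7 of 13 cases and lower in 3, at a median of 0.16. KDM1A fell 1.72-fold, and JMJD1C, PHF8 and the lysine 27 demethylase KDM6A rose 1.41-fold, 1.41-fold and 1.48-fold.

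**Figure D4:**
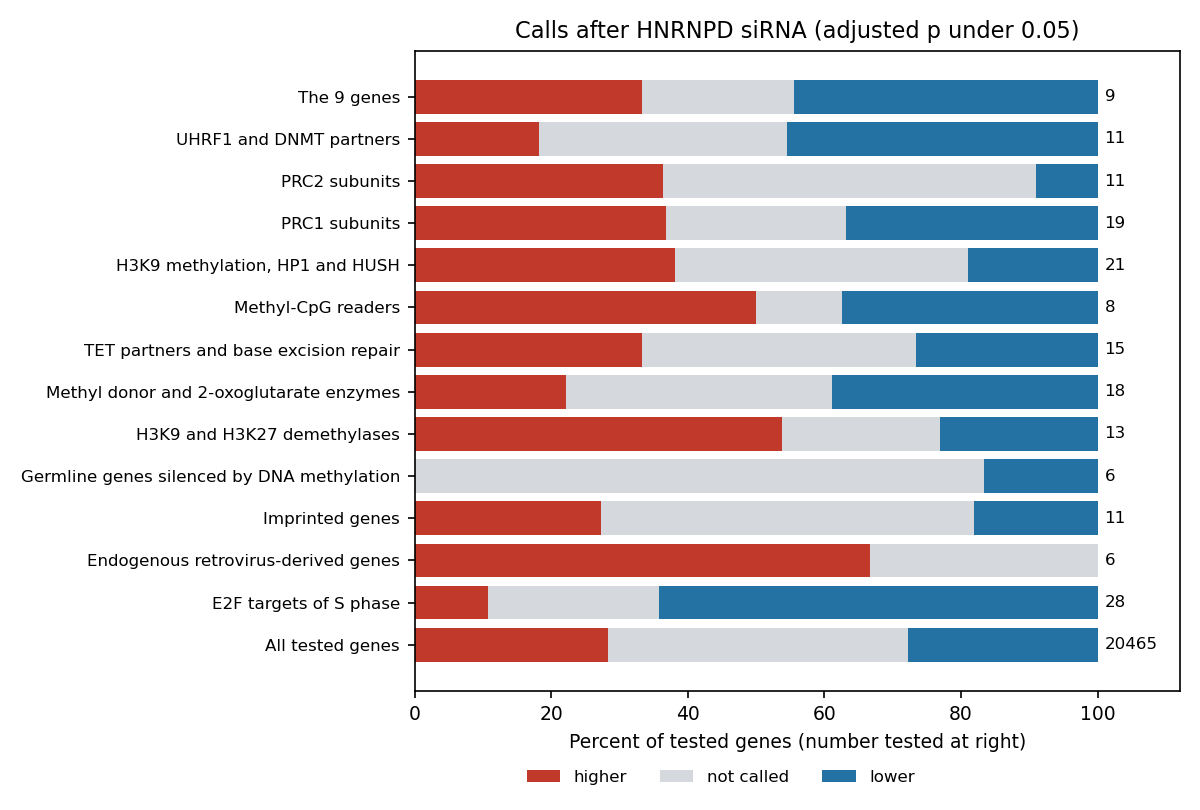
Percent of tested genes called higher (red), not called (grey) and lower (blue) after HNRNPD siRNA, for the 9 genes, each pathway list and all tested genes, with the number tested at the right. The E2F list has 18 of 28 lower, and the endogenous retrovirus-derived list has 4 of 6 higher and 0 lower, a count that the filter on low counts partly sets.

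Genes that depend on silencing by DNA methylation or heterochromatin were read as well. Of 28 germline genes known from other cells to be silenced by promoter methylation, 22 had too few counts to be tested, with no more than 0.305 CPM in any library, and 6 of these had no count at all. HORMAD1 and XAGE1A were well expressed in both groups, so not every gene of the list was silent in these cells. HORMAD1 was at 12.39 ± 1.11 CPM in HNRNPD siRNA libraries and 12.43 ± 0.698 CPM in control libraries (SD, n = 3 each), with a 95% interval of the log2 fold change from -0.19 to 0.18. XAGE1A was at 17.8 ± 0.814 CPM in HNRNPD siRNA libraries and 18.8 ± 0.633 CPM in control libraries (SD, n = 3 each), with an interval from -0.23 to 0.08. Both were named after their values were seen, and neither was called. Of the 6 tested, 0 were called higher by edgeR, DESeq2 or limma-voom, and 1, STK31, had an unadjusted p under 0.05 by edgeR and limma-voom and 0 did by DESeq2. STK31 was at 0.559 ± 0.186 CPM in HNRNPD siRNA libraries and 0.283 ± 0.0968 CPM in control libraries (SD, n = 3 each, edgeR adjusted p = 0.0549). It was called with library totals as the only scaling (adjusted p = 0.0487) and without HNRNPD siRNA replicate 1 (0.0323). With all 6 libraries, STK31 passed the filter on low counts through the HNRNPD siRNA libraries, where it was higher. Its calls are therefore given as a description. CTCFL, the germline paralog of the insulator protein CTCF, was singled out after its values were seen. It had 10, 6 and 10 counts in HNRNPD siRNA libraries, against 0, 0 and 0 counts in control libraries. With each control library given 3 counts, the limit that a count of 0 allows if counts are independent, it was at least 3.17-fold higher. Most low counts of the untested genes were even numbers, as when both reads of a pair are counted. In that case the limit is higher and the least fold smaller, which was not tested. The filter on low counts left it out of the main fit. CTCFL was called higher with no filter (edgeR adjusted p = 0.000309) and without HNRNPD siRNA replicate 2 or any 1 control replicate. In those runs with a library left out, it passed the filter through the HNRNPD siRNA libraries, so its counts are given as a description. MAGEA6, whose near-identical relatives make its counts uncertain, fell 1.52-fold. For the untested genes, at most 0.305 CPM, small changes were not detectable at this depth.

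Imprinted genes were higher in 3 and lower in 2 of 11 tested, at a median of 0.21. PEG10, a gene derived from a retrotransposon, rose 1.74-fold (348 CPM in HNRNPD siRNA libraries and 199.9 CPM in control libraries) and NNAT fell 2.31-fold. IGF2 was at 8.03, 5.77 and 16.8 CPM in HNRNPD siRNA libraries, against 1.36, 1.59 and 1.72 CPM in control libraries, and shares 23.4% of its exonic bases with other genes. It was highest in HNRNPD siRNA replicate 3, and its call was lost without control replicate 1 (adjusted p = 0.0511). The long non-coding RNA MEG3 was at 58.9, 59.9 and 87.5 CPM in HNRNPD siRNA libraries, against 102.4, 119.6 and 116.9 CPM in control libraries, and leaving out control replicate 2 (adjusted p = 0.0508) or control replicate 3 (0.054) ended its call. L3MBTL1, the other called gene, had overlapping groups (log2 fold change 0.38) and was not called without HNRNPD siRNA replicate 2 (adjusted p = 0.0624) or 3 (0.0686) or control replicate 1 (0.112).

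Genes derived from endogenous retroviruses were higher in 4 of 6 tested cases and lower in 0 (by edgeR, DESeq2 or limma-voom, with 0 lower at an unadjusted p under 0.05), at a median of 1.00. ERVH48-1 (17, 22 and 16 counts in HNRNPD siRNA libraries, against 4, 2 and 5 counts in control libraries) and ERVW-1 (26, 26 and 23 counts in HNRNPD siRNA libraries, against 3, 8 and 21 counts in control libraries) passed the filter on low counts through the HNRNPD siRNA libraries, where they were high. The count of 4 and the median are therefore partly set by the filter and are no result about the list. ERV3-1 was at 6.54, 7.73 and 6.19 CPM in HNRNPD siRNA libraries, against 1.95, 2.54 and 2.24 CPM in control libraries, a 3.04-fold rise (SE of the log2 fold change 0.15, edgeR adjusted p = 4.53e-08). ERVK3-1 rose 1.59-fold and shares 51.6% of its exonic bases with neighbouring genes. ERVH48-1 was at 0.464 ± 0.0627 CPM in HNRNPD siRNA libraries and 0.0866 ± 0.0368 CPM in control libraries (SD, n = 3 each). The control level is near the limit of 0.0698 to 0.0808 CPM that a count of 0 allows if counts are independent. ERVW-1 was called with all libraries but not without HNRNPD siRNA replicate 1 (adjusted p = 0.0799) or 2 (0.0621) or control replicate 1 (0.133) or 2 (0.11). Under the stricter filter of 1 CPM in 3 libraries, ERV3-1 and ERVK3-1 were the 2 genes left to test, and both were called higher.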

How the data were processed

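RNA-seq libraries of A549 cells (3 with HNRNPD siRNA, 3 with a negative-control siRNA) were read from 1 deposited table of whole-number read counts per gene, 1 column per library, with gene coordinates and exon length, per the file headers. Per the labels' protocols, RNA was taken with Trizol and an Illumina TruSeq kit was used for library construction. The submitters name Bowtie 0.12.2 and 2 builds, mm8 and GRCh38, with no role for any of them, per the submitters' processing notes. No source used here gives the counting program or whether it used strand. Totals were 37151094 to 43005090 counts. No replicate pair was close enough to be 1 library, with a chi-square of 6.58 to 27.5 per degree of freedom.

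Counts were tested with edgeR 4.0.16 in R 4.3.3 (quasi-likelihood, robust, TMM, filterByExpr, group as the only term) over 20465 genes, with an adjusted p threshold of 0.05. The fit was tested on simulated data. The F statistic and the fold change gave each standard error. CPM uses TMM-scaled totals. Alternatives used DESeq2 1.42.0, limma 3.58.1 (voom), other scalings and filters, counts divided by 2, a replicate block, and each library left out. Gene types, transcripts and exon overlap came from GENCODE 29 and the table's own coordinates. The 95% intervals of log2 fold changes are the estimate ± 1.96 of these standard errors and so include variation among libraries. This is a normal approximation, so the intervals are somewhat narrower than the edgeR test implies. The limit of 3 counts beside a count of 0 takes counts as independent and covers counting error only, since molecules were not tagged. Genes named from each list were up to 4 called genes with the smallest p, or every called gene where 5 or fewer were. Members and lists were chosen with earlier results of these data known.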

Additional observations from a re-analysis of the deposited data

How the results depend on the processing

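Over 15 alternatives (6 of them leaving out 1 library), the calls and directions of the 9 genes held in 134 of 135 cases, the exception being TET1 without control replicate 2. With 1 library left out in turn, the genes called numbered 5125 to 5718 higher and 5170 to 5826 lower among all genes, and 3 higher and 4 to 5 lower among the 9. In the same runs, called genes ran from 1 to 3 and 15 to 17 for E2F targets higher and lower, and 0 to 1 and 1 to 2 for germline genes. For imprinted genes they ran from 1 to 4 higher and 1 to 2 lower. Methyl donor and 2-oxoglutarate enzymes ran from 2 to 4 higher, and blood, stroma and endothelium markers from 0 to 1 higher. PRC2 subunits ran from 0 to 2 lower and TET partners from 3 to 4 higher. Subunits of Polycomb repressive complex 1 ran from 5 to 7 lower, and histone demethylases from 5 to 7 higher. With library totals as the only scaling, 1 germline gene (STK31) was higher and 0 PRC2 subunits were lower. With no filter, 1 germline gene (CTCFL, which the filter had removed) was higher. With at least 1 CPM in 3 libraries, 2 retrovirus-derived genes were higher and 0 PRC2 subunits lower. With 1 library left out, STK31 was the germline gene called higher without HNRNPD siRNA replicate 1. CTCFL was that gene without HNRNPD siRNA replicate 2 or any 1 control replicate. SYCP3 joined MAGEA6 as lower without HNRNPD siRNA replicate 3. The cause of the other changes was not tested. The labels do not say whether same-numbered libraries shared a culture or a day. Their deviations from the group means correlated at 0.08, 0.0296 and 0.00714, none over 0.1, which does not settle whether they did. HNRNPD siRNA replicates 1 and 2 correlated best with the control of their own number, and replicate 3 with control replicate 2 (0.0757). The replicate block gave 5792 genes higher and 5737 lower and changed no call of the 9 genes. Low counts limit the precision for TET1, for most germline genes and for ERVH48-1 and ERVW-1, and the p-values rest on 3 libraries a group.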
